A study of Mus musculus with 4 samples.

Results

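The genes described here are the Toll-like receptors Tlr1, Tlr2, Tlr3, Tlr4, Tlr6, Tlr7, Tlr8, Tlr9 and Tlr13 together with Cd14, found in the count table by their Ensembl mouse identifiers. They are 10 of the 53379 genes in the table. The RNA came from macrophages sorted as CD45-, CD11b- and F4/80-positive cells out of tumours of the MC38 model, a mouse colon carcinoma line, 21 days after its implantation into C57BL/6J mice. One group was fed a high-fat diet and the other a control diet, with 2 mice and so 2 libraries per diet, and the tumour model, day and sort were common to both. The composition and length of the diets and the age and sex of the mice are not stated in the labels. Each library was polyA RNA of 1 mouse, and the level of a gene is given as CPM, its counts set to a common library size scaled by edgeR's TMM method. The libraries are called HFD1 and HFD2 for the high-fat diet and CD1 and CD2 for the control diet.

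Toll-like receptors are membrane proteins that recognise molecules of microbes and of damaged cells, and macrophages are among the cells that carry most kinds of them. The surface receptors among the genes described here bind lipids and lipoproteins. Tlr2 works as a pair with Tlr1 or with Tlr6, and Tlr4 recognises bacterial lipopolysaccharide together with the co-receptor CD14 and the small protein MD-2. The endosomal receptors among them bind nucleic acids. Tlr3 recognises paired-strand RNA, Tlr7 and Tlr8 RNA fragments, Tlr9 DNA with unmethylated CpG and Tlr13 bacterial ribosomal RNA. All but Tlr3 signal through the adaptor Myd88, and Tlr3 and Tlr4 use the adaptor Ticam1, towards NF-kB, MAP kinases and interferon regulatory factors.

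Of the members, Tlr1 and Tlr6 are close copies that lie beside each other, and the sequence that they share bears on how far their reads can be told apart. In the GENCODE M21 transcripts 454 distinct stretches of 50 bases occurred in both genes, which is 13.6% of those of Tlr1 and 12.3% of those of Tlr6. No other pair of the 10 genes shared a stretch of 50 bases. The longest identical run was 229 bases, at positions 1468 to 1696 of the longest open reading frame of Tlr1 and 1507 to 1735 of that of Tlr6, counted from the A of its first codon.
Tlr1 and Tlr6, identical run: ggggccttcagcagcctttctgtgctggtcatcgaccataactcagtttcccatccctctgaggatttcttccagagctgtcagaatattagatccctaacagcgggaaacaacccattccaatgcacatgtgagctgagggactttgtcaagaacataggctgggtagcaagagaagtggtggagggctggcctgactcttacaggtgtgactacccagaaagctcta
How the authors' counting treated reads from such runs is not given in the labels, so the split between these genes is uncertain and their sum is given beside them.

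The start regions of Tlr1 and Tlr2 are shown because these were the members that passed the test, in opposite directions. The windows are RefSeq's (GRCm38.p6), from 250 bases before to 50 bases after an annotated start, written 5′ to 3′ on the strand of the gene, with matches to the motifs searched in capitals. The motifs were GGG and CC with any 5 bases between them (NF-kB), GAGGAAG (ETS factors such as PU.1), TGANTCA (AP-1), GAAA repeated after any 2 bases (the interferon-stimulated response element) and GGGCGG (Sp1), on both strands, and matches may overlap.
Tlr1, start within the gene, chr5:64932650-64932949, minus strand: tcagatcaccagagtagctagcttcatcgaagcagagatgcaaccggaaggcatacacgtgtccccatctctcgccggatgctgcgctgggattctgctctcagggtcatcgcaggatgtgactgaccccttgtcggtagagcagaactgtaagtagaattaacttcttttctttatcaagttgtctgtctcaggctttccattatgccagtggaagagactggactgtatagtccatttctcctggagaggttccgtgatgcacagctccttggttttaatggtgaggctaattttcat
Tlr1, upstream start, chr5:64933509-64933808, minus strand: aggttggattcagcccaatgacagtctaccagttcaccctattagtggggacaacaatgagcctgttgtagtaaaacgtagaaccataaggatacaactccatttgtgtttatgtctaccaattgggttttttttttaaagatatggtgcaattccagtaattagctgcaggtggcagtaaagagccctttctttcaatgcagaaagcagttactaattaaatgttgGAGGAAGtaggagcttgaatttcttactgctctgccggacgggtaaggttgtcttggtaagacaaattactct
Tlr2, chr3:83841559-83841858, minus strand: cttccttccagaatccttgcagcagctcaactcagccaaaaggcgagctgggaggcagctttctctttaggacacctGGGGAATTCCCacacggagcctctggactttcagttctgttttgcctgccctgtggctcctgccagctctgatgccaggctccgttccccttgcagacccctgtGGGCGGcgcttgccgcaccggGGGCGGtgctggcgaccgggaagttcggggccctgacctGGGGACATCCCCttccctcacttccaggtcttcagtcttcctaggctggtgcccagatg
The upstream window of Tlr1 held 1 match to the ETS motif, and the other held no match. The Tlr2 window held overlapping NF-kB matches, GGGGAATTCC beginning 173 bases and GGGGACATCC beginning 9 bases before the start, and 2 matches to GGGCGG. Over all 32851 windows of that length, the NF-kB letters occurred in 50.8%, the ETS letters in 13.6% and GGGCGG in 35.7%, so matches of this kind are common. RefSeq windows were matched for 7 of the 10 genes, and a match describes letters only.

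Libraries held 34148682 to 37159552 counts, and all 10 members passed the filter on low counts, with 520 to 40472 counts in a library. The counting error of the lowest of these counts is 4.39%, small beside the spread between mice. Over the 18422 genes tested with edgeR's quasi-likelihood test, 480 were called higher in the high-fat diet (2.61%) and 1457 lower (7.91%) at an adjusted p below 0.05. Among the members Tlr1 was called higher and Tlr2 lower, 2 of 10 against 10.5% of all genes tested. The diets did not overlap in 6 of the 10 members, a share near the 63.8% of all genes tested. The high-fat diet lay above in Tlr1, Tlr4 and Tlr7 (32.2% of all genes tested) and below in Tlr2, Tlr9 and Cd14 (31.6%). The median log2 fold change was 0.27 over the 10 members and 0.00 over all genes tested, with 7 members positive and 3 negative. The sort markers Ptprc, Itgam and Adgre1 were each present at 226 CPM or more in every library, and none of the 3 was called. The 14 genes of macrophage identity summed to 13847 to 17091 CPM in a library, and 1 of them, Mrc1, was called higher. Their median log2 fold change was 0.51, with 9 positive and 5 negative. Of the most abundant, Lyz2 had 2753 and 2815 CPM in the HFD against 4245 and 3522 CPM in the CD mice, C1qa had 3129 and 3194 against 1462 and 2720 CPM, and C1qb had 2879 and 3052 against 1643 and 2777 CPM, none of them called. In bulk RNA, fewer cells of a type and less RNA per cell cannot be told apart.

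Of the surface receptors, Tlr2 was the most abundant per length and the member that fell. Tlr2 (chr3:83836272-83841767, minus strand) had 387 CPM in HFD1 and 357 CPM in HFD2, against 611 CPM in CD1 and 563 CPM in CD2. Both high-fat-diet libraries lay below both control-diet libraries, and within each diet the mice were close. The means were 372 ± 20.7 and 587 ± 33.6 CPM (SD, n = 2). The log2 fold change was -0.66 (SE 0.15, edgeR adjusted p = 0.048), or 1.58-fold lower. With 3 libraries the log2 fold change stayed between -0.71 and -0.58, but the adjusted p was 0.245 without HFD1, 0.268 without HFD2 and 0.0652 without CD1.

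Tlr1, which pairs with Tlr2 to bind triacylated lipoproteins, went the other way. Tlr1 (chr5:64924679-64933563, minus strand) had 121 and 74.7 CPM in HFD1 and HFD2, against 42.1 and 50.2 CPM in CD1 and CD2. The lower high-fat-diet library lay above both control-diet libraries, and the HFD mice were further apart than the CD mice. The means were 97.8 ± 32.7 and 46.2 ± 5.69 CPM (SD, n = 2). The log2 fold change was 1.08 (SE 0.25, edgeR adjusted p = 0.0473), or 2.12-fold higher. The call ended without HFD1 (log2 fold change 0.71, adjusted p = 0.186) and without CD1 (0.97, adjusted p = 0.0749), and the first of these moved the log2 fold change by over 1.5 times.

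Tlr6, the other partner of Tlr2 and the receptor for diacylated lipoproteins, was the member of lowest level. Tlr6 (chr5:64952031-64960097, minus strand), which lies upstream of Tlr1 on the same strand with 18.5 kb between the genes, had 24.0 and 18.8 CPM in the HFD and 22.9 and 13.98 CPM in the CD mice. The diets overlapped, and the difference was not called (log2 fold change 0.22, SE 0.27, edgeR adjusted p = 0.621); it turned to -0.10 without CD2. The sum of Tlr1 and Tlr6 does not depend on how the counted reads were split between them. It was 145 and 93.5 CPM in the HFD against 65.0 and 64.2 CPM in the CD mice. The diets did not overlap in it, as in 63.8% of all genes tested. Tlr1 made up most of this sum in every library, so the sum largely repeats Tlr1, and any shared reads left uncounted are missing from it. Per length of exons, Tlr2 was 3.55 and 5.31 times the level of Tlr1 in the HFD mice and 16.1 and 12.5 times in the CD mice. Because Tlr1 and Tlr2 were picked out by their calls, this ratio is a description and was not tested. Tlr2 made up 69.2 and 76.1% of the summed level per kb of Tlr1, Tlr2, Tlr4 and Tlr6 in the HFD and 89.0 and 87.0% in the CD mice.

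Tlr4, the lipopolysaccharide receptor, and its co-receptor Cd14 were not called. Tlr4 (chr4:66827584-66930284, plus strand) had 80.8 and 54.6 CPM in the HFD and 34.9 and 51.0 CPM in the CD mice. The diets did not overlap, but HFD2 and CD2 were 54.6 and 51.0 CPM. The log2 fold change was 0.66 (SE 0.26, edgeR adjusted p = 0.15). Cd14, which hands lipopolysaccharide to Tlr4, had 683 and 883 CPM in the HFD and 1248 and 946 CPM in the CD mice. Its high-fat-diet libraries were the lower ones, again with the mice numbered 2 closest to each other, and the log2 fold change was -0.49 (SE 0.22, edgeR adjusted p = 0.183). Cd14 was 27.1 and 51.9 times the level of Tlr4 per kb in the HFD and 115 and 59.5 times in the CD mice. Without CD2, Tlr4 passed the threshold as higher (log2 fold change 0.96, adjusted p = 0.0295) and Cd14 as lower (-0.67, adjusted p = 0.049). The log2 fold change of Tlr4 was 0.36 without HFD1 and 0.41 without CD1, and that of Cd14 was -0.29 without HFD1 and -0.27 without CD1, none of them called.

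**Figure D1:**
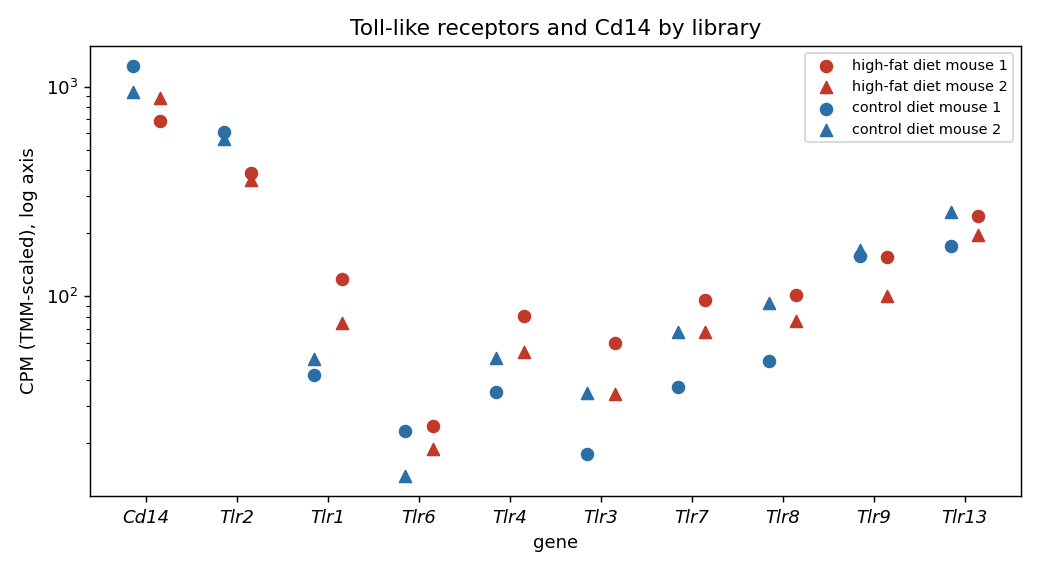
Level of each gene in CPM (log axis) in the 4 libraries, red for high-fat diet and blue for control diet, circles for mouse 1 and triangles for mouse 2. Tlr2 lies lower and Tlr1 higher in both high-fat-diet libraries, while in Tlr3 and Tlr7 the triangles of both diets lie at almost the same height.

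Of the 5 endosomal receptors 0 were called by edgeR (against 10.5% of all genes tested), 0 had an unadjusted p below 0.05, and DESeq2 and limma-voom called 0. The share of all genes with an unadjusted p below 0.05 is not given here, so that count is not read as a result. In Tlr3 and Tlr7 the mice numbered 2 of both diets had nearly equal levels. Tlr3 (chr8:45395665-45411080, minus strand) had 59.7 and 34.1 CPM in the HFD and 17.7 and 34.7 CPM in the CD mice (log2 fold change 0.84, SE 0.38, edgeR adjusted p = 0.19). Its HFD2 lay just under CD2, so the diets overlapped. Tlr7 (chrX:167304929-167330558, minus strand) had 96.6 and 67.6 CPM in the HFD and 37.2 and 67.4 CPM in the CD mice (log2 fold change 0.65, SE 0.31, edgeR adjusted p = 0.21). Tlr8 (chrX:167242696-167264329, minus strand), its neighbour on the X chromosome, had 101 and 76.6 CPM against 49.3 and 93.1 CPM (log2 fold change 0.32, SE 0.31, edgeR adjusted p = 0.521). CD2 thus lay above HFD2 in Tlr8, and the log2 fold change was -0.06 without CD1. Without CD2, Tlr3 (log2 fold change 1.40, adjusted p = 0.039), Tlr7 (1.14, 0.0124) and Tlr8 (0.85, 0.0219) passed the threshold as higher. Without HFD1 and without CD1 the log2 fold change was 0.40 and 0.44 in Tlr3 and 0.39 and 0.29 in Tlr7, none of them called.

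Tlr9 and Tlr13 were the most abundant endosomal members. Tlr9 (chr9:106222598-106226883, plus strand) had 153 and 101 CPM in the HFD and 156 and 166 CPM in the CD mice. HFD1 was level with the CD mice and HFD2 was lower, and the difference was not called (log2 fold change -0.34, SE 0.22, edgeR adjusted p = 0.333). It rested on HFD2, since the log2 fold change was -0.05 without that library and -0.66 without HFD1. Twf2, expressed at 153 to 212 CPM on the same strand, ends 7.21 kb before the start of Tlr9. Tlr13, on the X chromosome, had 243 and 197 CPM in the HFD and 174 and 253 CPM in the CD mice. Its diets overlapped with means of 220 ± 32.8 and 214 ± 56 CPM (SD, n = 2, log2 fold change 0.04, SE 0.22, edgeR adjusted p = 0.923). The sign of Tlr13 turned without HFD1 (-0.10) and without CD1 (-0.20).

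Under other settings the members' calls were read against the share of all genes called in the same fit. With RLE scaling (2.4% of all genes higher, 8.05% lower), upper-quartile scaling (2.48 and 8.6%), no filter (5.16 and 7.42%) and DESeq2 (5.87 and 10.9%), Tlr1 was the member called higher and Tlr2 the member called lower. By limma-voom (2.01 and 6.66%) only Tlr2 was called. Without HFD1 (0.359 and 1.52%) and without CD1 (4.4 and 8.65%) 0 members were called by edgeR, and without HFD2 (0.59 and 1.57%) Tlr1 alone was. Without CD2, where 10.1% of all genes were higher and 13.2% lower, 5 members were called higher and 2 lower.

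In 5 of the 10 members, Tlr1, Tlr3, Tlr4, Tlr7 and Tlr8, HFD1 was the highest and CD1 the lowest library. That order was found in 17.9% of all genes tested. In Cd14 the order was the opposite, with CD1 highest and HFD1 lowest, as in 15.5% of all genes tested. The highest library was 3.37 times the lowest in Tlr3, 2.87 times in Tlr1 and 2.60 times in Tlr7, against 1.45 times in Tlr13.

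**Figure D2:**
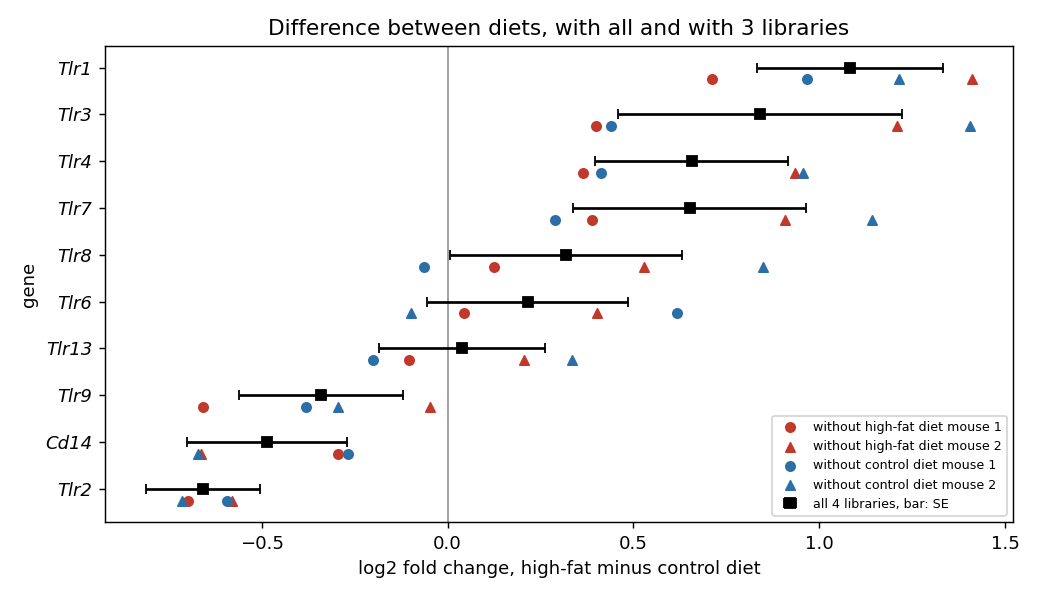
Log2 fold change of each gene, high-fat minus control diet, with all 4 libraries (black squares, bars for the standard error) and with 1 library left out (coloured symbols, drawn below each square). Tlr1 lies above 0 and Tlr2 below 0 in all 5 fits, while Tlr6, Tlr8 and Tlr13 have values on both sides of 0.

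Levels were compared between genes per kb of annotated exons. Cd14 was highest with a mean of 543 CPM per kb over the 4 libraries (range 394 to 720), followed by Tlr2 with 159 (119 to 203). Tlr13 with 50.4 and Tlr9 with 41.4 came next, with overlapping ranges, and Tlr13 was above Tlr9 in 3 of 4 libraries. Tlr8 with 22.3, Tlr1 with 21.5 and Tlr7 with 16.5 also overlapped, with Tlr8 above Tlr1 in 2 of 4 libraries, and Tlr1 was the higher of these in both HFD libraries and the lower in both CD libraries. Their order by mean changed when the longest transcript was used as the length. Tlr4 had 9.96, Tlr3 7.02 and Tlr6 5.34 CPM per kb, with Tlr4 above Tlr3 in 4 of 4 and Tlr3 above Tlr6 in 3 of 4 libraries. Cd14 and Tlr2 did not overlap with any lower member, nor did Tlr9 with Tlr8. The range of Tlr9 (29.0 to 47.7 CPM per kb) did overlap with that of Tlr1 (12.6 to 36.1). For Cd14 and Tlr13 the annotation holds a later version of the gene than the count table, so their coordinates are not given and their lengths are approximate.

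**Figure D3:**
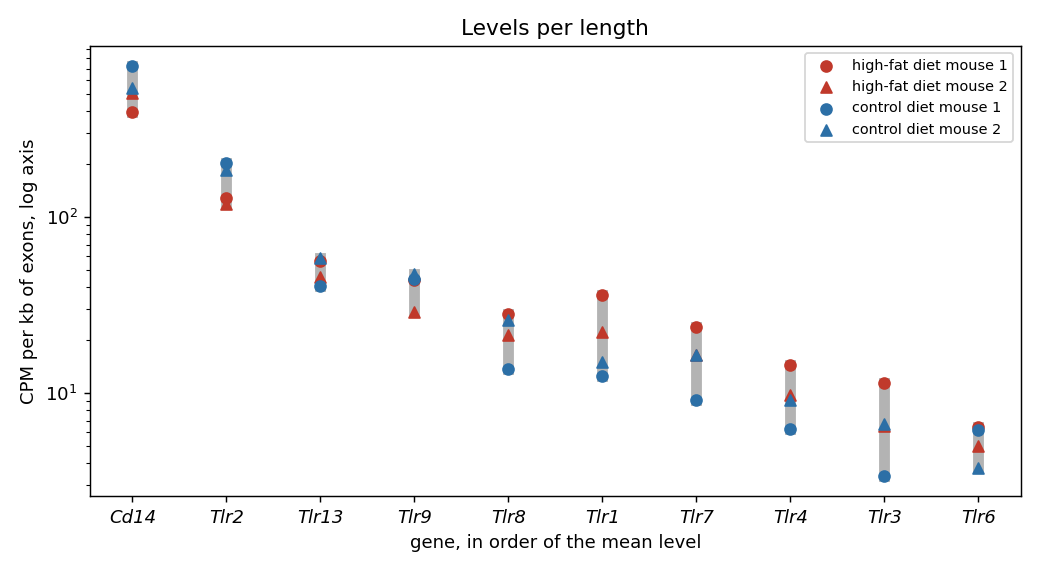
Level of each gene in CPM per kb of exons (log axis), genes ordered by their mean, with 1 symbol per library and a grey bar from the lowest to the highest library. The bars of Cd14 and Tlr2 stand clear of all others, while those from Tlr8 to Tlr6 overlap with their neighbours.

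The receptors outside the set were lower or as variable. Tlr12, a partner of Tlr11 in sensing profilin of protozoa, had 71.0 and 41.9 CPM in the HFD and 34.3 and 40.1 CPM in the CD mice (log2 fold change 0.60, SE 0.26, edgeR adjusted p = 0.178). Tlr5, the flagellin receptor, had 14.2 and 12.7 against 17.7 and 12.7 CPM (edgeR adjusted p = 0.613), and Tlr11 had 4.03 and 2.11 against 3.67 and 3.39 CPM (edgeR adjusted p = 0.738).

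Among co-receptors and chaperones 2 of 11 tested genes fell and 0 rose (18.2% called, against 10.5% of all genes), with a median log2 fold change of -0.01. Itgb2, the beta chain of CD11b and of other leukocyte integrins, had 533 and 557 CPM in the HFD and 1354 and 1069 CPM in the CD mice (log2 fold change -1.15, SE 0.18, edgeR adjusted p = 0.0219). Cd36, a scavenger receptor that acts with Tlr2 and Tlr6, had 16.7 and 15.4 against 30.1 and 61.3 CPM (edgeR adjusted p = 0.0414), and its log2 fold change of -1.51 was -0.91 without CD2. Ly96, which encodes MD-2, was counted at only 4.89 and 3.83 against 1.66 and 4.14 CPM, with CD1 lowest as for Tlr4 (edgeR adjusted p = 0.409). Ly86, the partner of Cd180, had 320 and 274 against 182 and 253 CPM (edgeR adjusted p = 0.191). Unc93b1, the chaperone that carries endosomal receptors to their compartment, was at 965 to 1114 CPM in all 4 libraries (log2 fold change -0.01, edgeR adjusted p = 0.961); it was named after its values were seen.

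Of 28 adaptors and proximal kinases edgeR called 0, while 7 had an unadjusted p below 0.05, DESeq2 called 4 and limma-voom 0. Over all genes edgeR called 10.5%. DESeq2 called 5.87% higher and 10.9% lower, and limma-voom 2.01% higher and 6.66% lower. The share of all genes with an unadjusted p below 0.05 is not given here. The list had 19 negative log2 fold changes and a median of -0.17. Those of smallest p were Traf3, with 85.7 and 90.3 against 160 and 125 CPM (edgeR adjusted p = 0.0525), Ripk1 (adjusted p = 0.0544), Ikbkg (0.0682) and Irak2 (0.0723). Traf3, a ubiquitin ligase adaptor of the interferon branch, Ripk1, a kinase downstream of Ticam1, and Irak2, a kinase downstream of Myd88, had negative values, and Ikbkg, the regulatory subunit of the IkB kinase, had a positive one. Myd88 itself, named after its values were seen, had 111 and 88.4 against 164 and 117 CPM (log2 fold change -0.49, SE 0.22, edgeR adjusted p = 0.178).

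Of 22 negative regulators 2 fell and 0 rose (9.09% called, against 10.5% of all genes), with 19 negative values and a median of -0.32. Socs1, an inhibitor of cytokine and receptor signalling, had 35.1 and 28.8 against 217 and 107 CPM (log2 fold change -2.34, SE 0.34, edgeR adjusted p = 0.0191; -1.74 without CD1). Nfkbie, an inhibitor of NF-kB that NF-kB itself induces, had 91.1 and 68.6 against 238 and 146 CPM (edgeR adjusted p = 0.0405). Nlrc5, a regulator of MHC class I genes, had 197 and 149 against 338 and 264 CPM (edgeR adjusted p = 0.0602), and Rnf216, a ubiquitin ligase, had 62.8 and 64.6 against 91.3 and 89.4 CPM (adjusted p = 0.0634).

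Of 16 genes of endosomal processing and nucleic acid digestion 1 fell and 0 rose (6.25% called, against 10.5% of all genes), with a median of 0.15. Slc15a3, a peptide and histidine transporter of endolysosomes, had 224 and 292 against 609 and 451 CPM (log2 fold change -1.04, SE 0.22, edgeR adjusted p = 0.0394). The lysosomal nuclease Dnase2a had 87.5 and 85.9 against 61.7 and 59.3 CPM (edgeR adjusted p = 0.0597). Lgmn and Ctsl, proteases that can cleave endosomal receptors, had 1371 and 1389 against 593 and 940 CPM and 457 and 469 against 340 and 279 CPM (adjusted p = 0.0752 for both).

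Of 26 early response targets 5 fell and 1 rose, with a median of -0.49 beside 0.00 for all genes. The share called was 23.1%, against 10.5% of all genes. Nlrp3, the inflammasome sensor, had 116 and 132 against 464 and 395 CPM (log2 fold change -1.79, SE 0.17, edgeR adjusted p = 0.00808). Lcn2, an iron-binding lipocalin that neutrophils also make, had 0.267 and 0.182 against 8.17 and 4.30 CPM (adjusted p = 0.00935). Icam1, an adhesion molecule, had 112 and 90.6 against 282 and 190 CPM (adjusted p = 0.0317), and Il23a, a cytokine subunit, had 2 and 4 counts against 47 and 47 (adjusted p = 0.0158). Csf3, which encodes the granulocyte growth factor G-CSF, had 3 counts over the HFD mice, all in HFD1, and 52 over the CD mice, a ratio of 18.9 (exact conditional 95% interval 6.11 to 94.4, counting error only). Cxcl1, a neutrophil chemoattractant, rose from 10.97 and 10.1 to 18.1 and 18.7 CPM (adjusted p = 0.039).

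Of 16 other pattern recognition receptors and their kinase 3 fell and 0 rose (18.8% called, against 10.5% of all genes), with a median of -0.16. Nod2, a cytosolic sensor of bacterial muramyl dipeptide, had 32.5 and 26.4 against 113 and 71.4 CPM (log2 fold change -1.65, SE 0.25, edgeR adjusted p = 0.021), and Ripk2, the kinase it signals through, had 23.0 and 22.9 against 55.4 and 36.6 CPM (adjusted p = 0.0407). Nod1, the related sensor, had 46.8 and 37.7 against 92.5 and 56.4 CPM (adjusted p = 0.0937). Cd209a, a lectin also of dendritic cells, had 0.187 and 0.156 against 11.3 and 1.237 CPM (adjusted p = 0.0434), and its log2 fold change of -5.16 ran from -6.02 to -2.82 with 1 control-diet mouse left out. Without HFD1 or HFD2 all calls in these lists but those of Nlrp3 and Lcn2 ended, and far fewer genes were called over all genes too. The log2 fold changes of the 14 genes called kept their sign in each fit with 1 library left out. That of Csf3, -4.13 with all libraries, was -7.75 without HFD1 and -3.15 without HFD2. Without CD2 more genes were called lower, both in these lists and over all genes. Calls also ended by limma-voom for Cd36 (adjusted p = 0.0588), Ripk2 (0.0528) and Cd209a (0.169), and with no filter on low counts for Cd36 (0.0589) and Cd209a (0.301).

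**Figure D4:**
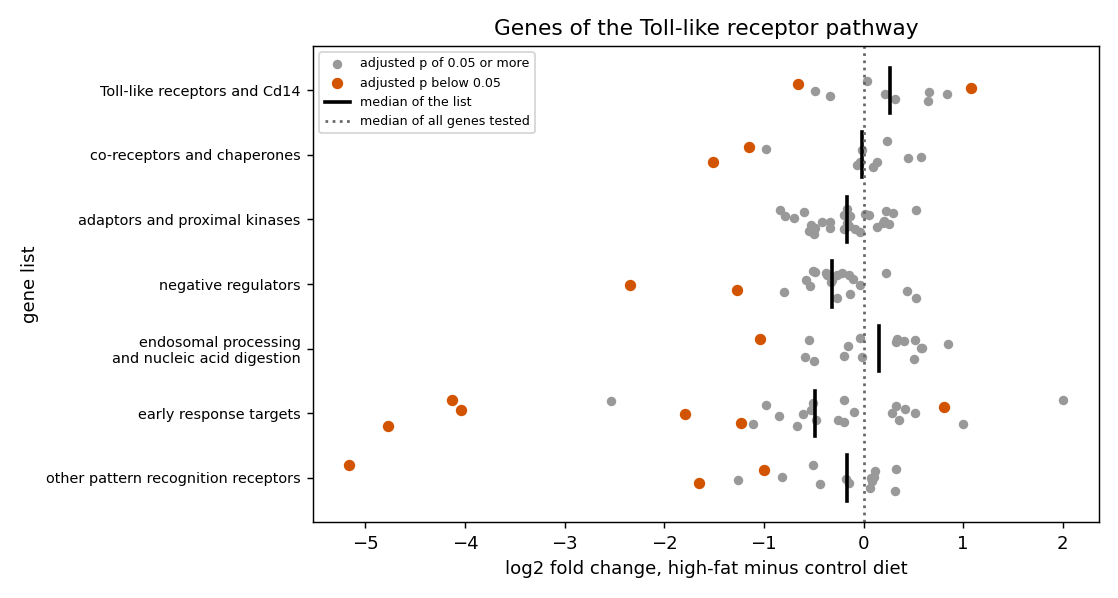
Log2 fold change, high-fat minus control diet, of each tested gene of the receptors and of 6 lists of the pathway, with called genes in orange, list medians as black bars and the median of all genes as a dotted line. In the 6 pathway lists the called genes lie left of 0 except for Cxcl1, and the receptors spread to both sides.

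Markers of several other cell types moved with the diets beside these results. The counts of markers called, here and for the cell types below, stand beside 2.61% of all genes called higher and 7.91% lower by edgeR. By DESeq2 these shares were 5.87 and 10.9%. For an unadjusted p below 0.05 the share of all genes is not given here, so the counts at that threshold are not read as a result. Of 10 neutrophil markers 6 were called lower and 0 higher, with a summed level of 266 and 273 CPM in the HFD against 717 and 402 CPM in the CD mice. All 10 log2 fold changes were negative, with a median of -3.51. Trem1 had 73.1 and 102 against 324 and 209 CPM and was called lower, while Mmp9 (104 and 81.5 against 124 and 73.5 CPM) and Csf3r (80.8 and 83.0 against 138 and 71.6 CPM) were not called. Ly6g was at 0 in both HFD libraries and at 0.308 and 0.807 CPM in the CD libraries. Of 8 monocyte markers 0 were called by edgeR, while 5 had an unadjusted p below 0.05, DESeq2 called 3 and limma-voom 0, with a summed level of 1084 and 674 against 1654 and 644 CPM. Among the 8 markers 6 log2 fold changes were negative and 2 positive, with a median of -1.51. The most abundant did not go 1 way: Ccr2 had 534 and 339 against 455 and 305 CPM, Vcan had 288 and 170 against 158 and 120 CPM, and Ly6c2 had 69.6 and 26.8 against 309 and 82.6 CPM. Neutrophils and monocytes carry Tlr2, Cd14 and Itgb2 as well, and the part of these cells in the differences was not tested.

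Of 10 fibroblast and pericyte markers 6 were called higher and 0 lower, with a summed level of 2050 and 2041 against 1027 and 775 CPM. Among them Col3a1 had 1690 and 1540 against 890 and 674 CPM, Col1a1 had 97.8 and 213 against 29.2 and 17.6 CPM, and Dcn had 107 and 70.2 against 33.97 and 29.6 CPM. Fibroblasts can express Tlr3 and Tlr4, and their part was not tested either. Of 10 markers of conventional dendritic cells, a type rich in Tlr3 and Tlr11, Clec9a and Cd209a were called lower, with a summed level of 46.5 and 53.0 against 135 and 76.7 CPM. Among these 10 markers 9 log2 fold changes were negative and 1 positive, with a median of -1.21. The most abundant of these markers, Batf3, Xcr1 and Ccr7, were not called. Of the cells best known for Tlr9, which are plasmacytoid dendritic cells and B cells, the former had their marker Siglech at 0.081 to 0.832 CPM in the 4 libraries. Their whole list, led by Bst2, Tcf4 and Runx2, summed to 438 and 371 against 313 and 367 CPM, with 0 of 7 markers called by edgeR, 1 at an unadjusted p below 0.05 and 0 by DESeq2 or limma-voom. The B cell list, led by Ighm, Cd79b and Ebf1, summed to 208 and 194 against 116 and 224 CPM, with Ebf1 called higher and Cd79a lower.

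Of 10 T and NK cell markers 1 was called higher and 1 lower, with a summed level of 25.6 and 23.9 against 73.8 and 20.4 CPM, led by Gzma, Nkg7 and Cd8a. The 8 markers of mast cells and eosinophils, led by Kit, Siglecf and Prg2, summed to 5.85 and 5.71 against 40.3 and 9.36 CPM, highest in CD1. Of 8 epithelial markers 7 were called lower, Krt8 and Epcam among them, with a summed level of 39.9 and 46.3 against 159 and 119 CPM, most of it Cdh1 in the HFD libraries. All 8 of their log2 fold changes were negative, with a median of -5.79. Of 8 platelet and erythroid markers, led by Pf4, Hbb-bs and Hba-a1, 2 were called higher and 2 lower, with a summed level of 102 and 104 against 28.9 and 47.2 CPM. The part of these cells in the receptors' differences was not tested.

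The genes whose profile over the 4 libraries lay nearest to that of Tlr1, by root mean square distance of centred log2 CPM among 9196 genes, were Zbtb41 (0.0592), mt-Nd4 (0.0603) and Bcap29 (0.0809). None of these 3 was called (adjusted p = 0.0665, 0.0666 and 0.0512). Nearest to Tlr2 were Slc20a1 (0.0153), Srebf2 (0.0196) and Dop1b (0.0213), each called lower (adjusted p = 0.0453, 0.0427 and 0.0458). With 4 libraries many genes share a profile, and these names are a description.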

How the data were processed

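PolyA RNA of sorted tumour-associated macrophages was measured in 4 libraries. The authors deposited 1 table of raw, whole-number counts for each gene in each library. The tools named per the submitters' processing notes are BWA 0.7.12, cutadapt 1.15, DESeq2 1.24.0 and FastQC 0.11.5, and the builds are GRCm38 and mm10; per the labels' protocols the library kit was stranded. For the counting program, its strand setting and its handling of reads with several matches, the sources used here give no name or value. BWA does not split reads over introns; what it aligned to is not given, so levels of genes with few and with many exons may not be comparable.

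Identifiers were matched to symbols without their version (53274 of 53379). Positions and exon lengths are from GENCODE M21 on GRCm38, promoters from RefSeq on GRCm38.p6. All genes passing edgeR's filterByExpr (minimum count 10, minimum total 15) were fitted with edgeR 4.0.16 in R 4.3.3: TMM scaling, robust dispersions, quasi-likelihood test with diet as the only term, Benjamini-Hochberg adjustment over 18422 genes, calls at an adjusted p below 0.05. The SE is the size of the log2 fold change divided by the square root of F. The fit was tested on simulated data. Alternatives were RLE and upper-quartile scaling, no filter, DESeq2 1.42.0, limma-voom (limma 3.58.1), a block for the mouse number and leaving out each library. Such a fit with 1 mouse in a diet assumes that it varies like the other diet's pair. The labels name no molecular identifiers, and intervals cover counting error only.

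The members and lists were chosen with earlier results of these data known. Genes named are the members, Tlr5, Tlr11 and Tlr12, from each pathway list up to 6 called genes or, with under 4 called, the 4 of smallest p, and of each marker list up to 3 of highest level. For the called member of each direction the 3 genes of nearest profile (average log2 CPM at least 3, pseudocount 0.5) are named too. Unc93b1, Myd88 and the markers Mrc1, Clec9a, Ly6g, Siglech and Cd79a were named after their values were seen.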

Additional observations from a re-analysis of the deposited data

How the results depend on the processing

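The direction of Tlr1, Tlr2, Tlr3, Tlr4, Tlr7, Tlr9 and Cd14 was the same under every alternative run, and that of Tlr6, Tlr8 and Tlr13 turned only with 1 library left out (log2 fold change from -0.0988 to 0.618 in Tlr6, -0.063 to 0.849 in Tlr8 and -0.202 to 0.334 in Tlr13, where -0.104 was the value without HFD1). The number of members called higher, 1 with all libraries, was 0 by limma-voom (Tlr1 at adjusted p = 0.0561) and ran from 0 to 5 with 1 library left out, and the number called lower, 1, ran from 0 to 2. In the pathway lists 1 gene was higher and 13 lower: the former was 9 with no filter and 5 by DESeq2 and ran from 0 to 8 with 1 library left out, and the latter was 28 by DESeq2 and 10 by limma-voom and ran from 2 to 33. Over all genes 480 were higher and 1457 lower: with no filter 1552 and 2231, by DESeq2 1082 higher, and with 1 library left out 71 to 1934 higher and 300 to 2534 lower. Scaling by RLE or upper quartile changed no member's call, and the 6 members without overlap were 6 without TMM factors.

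The mouse numbers were not taken as pairs, since the labels state no block. The deviations of libraries with the same number from their diet means were correlated at -0.189 over 10312 genes. With 2 mice per diet this value only changes sign when the numbers are crossed, so it cannot show whether the mice were paired. With the mouse number as a block Tlr1 was called (adjusted p = 0.0338) and 0 members were lower (Tlr2 at 0.0793), and over all genes 567 were higher and 1481 lower. In the pathway lists 1 gene was higher under the block, Lgmn in place of Cxcl1 (adjusted p = 0.0637), and 17 were lower. With the numbers crossed, an alternative chosen after seeing the data, 4 members were higher and 1 lower, 3 and 16 in the pathway lists, and 909 and 1546 over all genes. Depth was not varied; genes with few counts, such as Csf3, are limited by counting as well as by the 2 mice per diet.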
